A study of Mus musculus with 10 samples.

Results

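Inhibitors of cyclin-dependent kinases (CDKs), the D-type cyclins and their kinase Cdk4 were followed across the lungs of arsenic-exposed and control mice. The members were chosen by gene symbol, as every probe set of the array whose single symbol in the platform annotation was Cdkn1a, Cdkn1b, Cdkn1c, Cdkn2b, Cdkn2c, Cdkn2d, Ccnd1, Ccnd2, Ccnd3 or Cdk4. All 10 genes were found among the 18193 genes named on the array, and they held 24 of its 45101 probe sets. The genes were picked with earlier results of this same comparison in view, above all the higher Cdkn1a values, so their differences between the groups are a description and no support is drawn from how many of them passed a threshold.

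The arsenic group consisted of 5 female C57BL/6 mice, an inbred strain, whose drinking water held arsenic at 50 ppm for 12 weeks from the age of 8 weeks. The control group consisted of 5 females of that strain and age that drank distilled, deionized water. The labels disagree on the compound, which is arsenate in the series text and arsenite in the sample fields, and 1 control sample, replicate 4, has no dose in its treatment field. Total RNA from the lung of each animal was hybridised to 1 Affymetrix Mouse430_2 array. Sample titles carry a first number that is shared by all arsenic mice and another that is shared by all controls. What that number stands for is not stated, so a cage or lot it might mark and the exposure cannot be told apart.

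Values are log2 expression after GCRMA, so a difference of 1 is a doubling. A probe set reads one stretch of a transcript with its own binding strength, and for that reason no probe set's level is set against another's. Array medians lay between 4.11 and 4.26, and pairs of arrays correlated at 0.990 to 0.997 over all probe sets. Lung identity was clear in every sample, since 9 alveolar type 2 markers averaged 14.11 to 14.33 in arsenic lungs and 14.16 to 14.30 in control lungs. Of 110 tested genes in 15 marker lists for lung and other tissues, 0 passed the threshold by limma and 10 had an unadjusted p under 0.05, a share below the 15.7% (1778 of 11332) over all genes. Kidney transcripts nevertheless varied: the mean of 17 kidney genes was 4.94, 4.82, 4.84, 5.70 and 4.62 in arsenic replicates 1 to 5, against 3.78, 4.45, 4.63, 5.03 and 4.35 in control replicates 1 to 5. This level was higher on average in the arsenic group, at 4.98 against 4.45 in the control group, and the groups overlapped. Of 8 kidney genes tested, 7 had positive differences, and 3 had an unadjusted p under 0.05, all 3 positive. Among these 17 genes, 8 had a mean above the level used as a filter (4.20) and the rest were below it, and the proximal tubule gene Kap spanned 10.56 to 13.40 in arsenic lungs and 2.26 to 12.12 in control lungs. A fit with this kidney level as a covariate is given beside the member results below.

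D-type cyclins bind Cdk4 and Cdk6 in the G1 phase of the cell cycle, and the active kinases phosphorylate the retinoblastoma protein, which frees E2F factors to switch on the genes of DNA synthesis. CIP/KIP inhibitors (Cdkn1a, Cdkn1b, Cdkn1c) bind cyclin-kinase complexes and can stop cyclin E and cyclin A complexes. INK4 inhibitors, among the members Cdkn2b, Cdkn2c and Cdkn2d, bind Cdk4 and Cdk6 directly and keep D-type cyclins off them. Of the inhibitors, Cdkn1a is the classic p53 target and is also switched on by p53-independent routes. Most cells of the adult lung divide rarely.

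Promoters are shown for Cdkn1a and Ccnd3, the 2 members with a probe set past the threshold. Sequences are from RefSeq on GRCm38.p6, from 250 bases before to 50 bases after an annotated transcript start, and entries were matched for 7 of the members, with 10 windows of 300 bases. Both genes lie on the plus strand of chromosome 17 and have 2 annotated starts each. The windows are chr17:29090729-29091028 and chr17:29093519-29093818 for Cdkn1a, and chr17:47504801-47505100 and chr17:47593217-47593516 for Ccnd3. Capitals mark GC boxes (GGGCGG on either strand) and, in the first window, the p53 element.
Cdkn1a, upstream start: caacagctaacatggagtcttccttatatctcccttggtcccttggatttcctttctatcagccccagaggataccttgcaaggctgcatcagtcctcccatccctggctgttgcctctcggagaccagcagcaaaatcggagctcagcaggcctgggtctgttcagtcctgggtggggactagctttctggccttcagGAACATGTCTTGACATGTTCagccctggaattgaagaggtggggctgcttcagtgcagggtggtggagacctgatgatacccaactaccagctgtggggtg
Cdkn1a, downstream start: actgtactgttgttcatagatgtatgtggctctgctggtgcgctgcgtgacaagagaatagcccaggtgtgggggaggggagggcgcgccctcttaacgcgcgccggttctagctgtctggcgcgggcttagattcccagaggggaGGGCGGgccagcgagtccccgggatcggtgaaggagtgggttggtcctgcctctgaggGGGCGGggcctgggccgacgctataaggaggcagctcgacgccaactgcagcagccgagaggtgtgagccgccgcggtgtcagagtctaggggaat
Ccnd3, upstream start: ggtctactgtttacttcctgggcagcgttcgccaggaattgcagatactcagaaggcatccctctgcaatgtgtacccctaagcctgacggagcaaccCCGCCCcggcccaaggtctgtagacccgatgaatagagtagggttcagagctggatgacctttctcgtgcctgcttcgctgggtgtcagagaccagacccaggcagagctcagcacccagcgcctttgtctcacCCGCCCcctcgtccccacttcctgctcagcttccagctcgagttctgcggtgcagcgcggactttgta
Ccnd3, downstream start: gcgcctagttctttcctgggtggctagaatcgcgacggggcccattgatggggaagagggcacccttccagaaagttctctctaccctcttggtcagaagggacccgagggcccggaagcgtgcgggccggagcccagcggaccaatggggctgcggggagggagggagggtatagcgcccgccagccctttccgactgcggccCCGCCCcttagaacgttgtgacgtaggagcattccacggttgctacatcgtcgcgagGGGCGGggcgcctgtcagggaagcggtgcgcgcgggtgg

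The window at the upstream Cdkn1a start held a 20-base match to the p53 element, 2 half-sites end to end, with 1 mismatch, beginning at position -51 from the start. The search required the core C and G of each half-site and allowed 1 mismatch elsewhere. Such a match occurred in 22 of the 32851 RefSeq promoter windows of this length (0.067%) and in 1 of the 10 member windows. The downstream Cdkn1a window held GC boxes at -104 and -46 and no p53 element. GC boxes stood at -152 and -18 in the upstream Ccnd3 window and at -46 and 11 in the downstream one, and the upstream window also held a FoxO site (GTAAACA) at -243. Both strands were searched and matches could overlap. A GC box was present in 8 of 10 member windows against 35.7% of all windows, an E-box (CACGTG) in 2 of 10 against 7.2%, a FoxO site in 1 of 10 against 3.6%, and a glucocorticoid receptor element (GNACA, any 3 bases, TGTNC) in 0 of 10 against 0.475%. These are letter matches in short windows and say nothing of binding.

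The CIP/KIP inhibitor Cdkn1a was higher in every arsenic lung than in any control lung on both of its probe sets, a pattern shown by 491 of the 22495 probe sets kept by a filter on low values (2.18%). Probe set 1424638_at read 11.22, 11.59, 11.68, 11.92 and 11.87 in arsenic replicates 1 to 5, against 10.44, 10.69, 10.58, 10.43 and 11.12 in control replicates 1 to 5. Its group means were 11.66 ± 0.28 in arsenic lungs and 10.65 ± 0.28 in control lungs (SD, n = 5 each), a difference of 1.00 (95% confidence interval 0.64 to 1.37), or 2.01-fold. The lowest arsenic lung, replicate 1, lay only just above the highest control lung, replicate 5. Because lung tissue was measured in bulk, more cells that express a gene and more RNA per cell cannot be told apart.

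Probe set 1421679_a_at, whose suffix marks a design that reads several transcripts of 1 gene, gave 7.99, 8.28, 8.19, 8.87 and 9.02 in arsenic lungs, against 6.49, 7.09, 6.88, 7.02 and 7.66 in control lungs. Means of 8.47 ± 0.45 in arsenic lungs and 7.03 ± 0.42 in control lungs (SD, n = 5 each) differed by 1.44 (95% confidence interval 0.90 to 1.99), or 2.72-fold. The pair of probe sets ranked the animals alike at the top: replicates 4 and 5 were the 2 highest arsenic lungs and replicate 5 the highest control on both, and deviations from the group means correlated at 0.88 over the 10 arrays. Both probe sets target 1 gene and are not independent evidence.

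In the fit across all 22495 kept probe sets, limma's moderated test with Benjamini-Hochberg adjustment gave Cdkn1a adjusted p-values of 0.0367 (1424638_at) and 0.0403 (1421679_a_at), close to the threshold of 0.05. A probe set under that threshold is called here, and over all kept probe sets 59 were called higher (0.262%) and 40 lower (0.178%). Leaving out 1 animal at a time kept both differences positive, between 0.94 and 1.12 for 1424638_at and between 1.31 and 1.60 for 1421679_a_at. Each nevertheless stayed under the threshold in only 2 of those 10 fits, the ones without arsenic replicate 1 and without control replicate 5. When the kidney level was added as a covariate, the differences were 0.97 and 1.29 and the adjusted p-values 0.117 and 0.119. The size of the Cdkn1a difference therefore varied little between these fits, while its call did not hold in most fits with 9 animals.

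Cdkn1b and Cdkn1c, the other CIP/KIP inhibitors, were not called. Cdkn1b, a brake that holds cells in quiescence, read 11.60, 11.54, 11.57, 11.63 and 11.65 in arsenic lungs on 1434045_at, against 11.49, 11.70, 11.63, 11.38 and 11.38 in control lungs. The arsenic values lay inside the control range, and the difference of 0.08 had an interval of -0.10 to 0.26 and was 0.09 with the kidney covariate. A second Cdkn1b probe set, 1419497_at, was at 3.00 to 3.09 in arsenic lungs and 3.05 to 3.15 in control lungs, below the filter on all arrays, and was not tested.

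Cdkn1c, an imprinted inhibitor best known for growth control before birth, read 8.45, 9.17, 8.55, 9.0 and 8.69 in arsenic lungs, against 8.40, 8.41, 8.37, 8.23 and 8.78 in control lungs. Of the arsenic lungs, 2 exceeded every control, and control replicate 5, the highest control for Cdkn1a, was also the highest here. Its difference was 0.33 (95% confidence interval 0.00 to 0.67, adjusted p 0.292 by limma), and 0.32 with the kidney covariate.

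**Figure D1:**
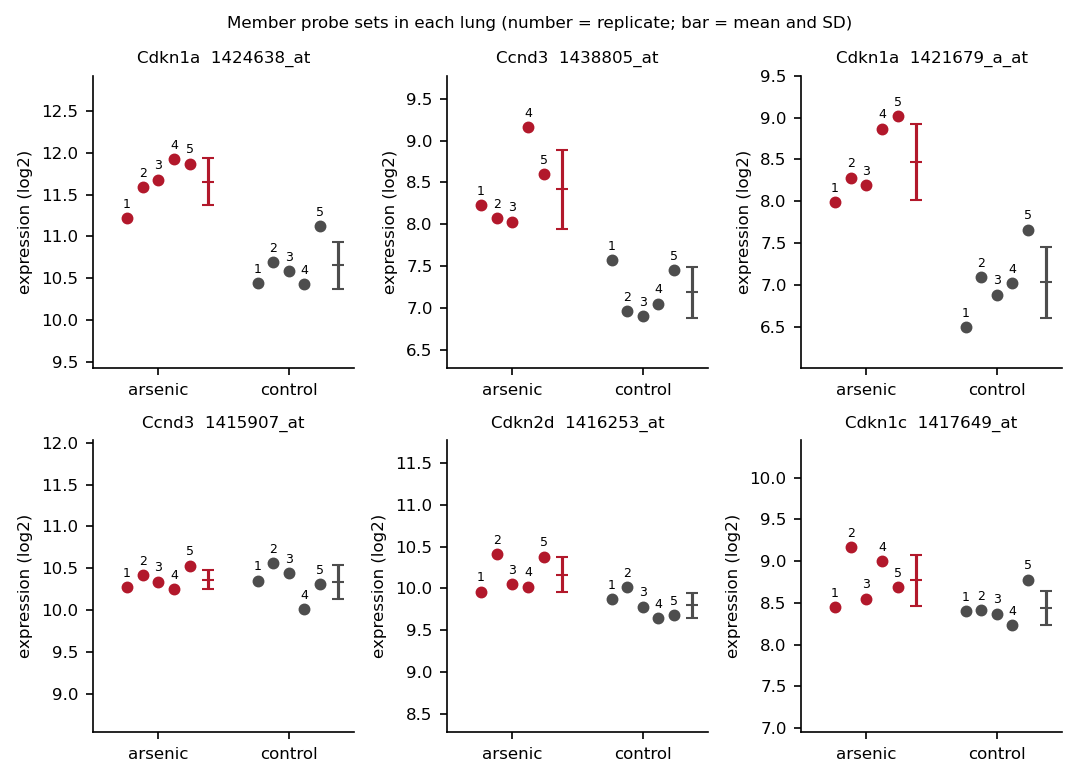
Log2 expression of 6 member probe sets in each lung, with arsenic lungs on the left and control lungs on the right of each panel, numbers giving the replicate and bars the mean and SD (n = 5 each). The groups do not overlap for both Cdkn1a probe sets and for Ccnd3 1438805_at, and they overlap for Ccnd3 1415907_at, Cdkn2d and Cdkn1c.

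None of the INK4 inhibitors among the members (Cdkn2b, Cdkn2c and Cdkn2d) was called, and INK4 genes outside the member list were not looked at. Cdkn2d, an INK4 inhibitor found in many adult tissues, came nearest, with 9.96, 10.41, 10.05, 10.02 and 10.38 in arsenic lungs, against 9.87, 10.01, 9.78, 9.64 and 9.68 in control lungs. Here 4 of the 5 arsenic lungs lay above all controls, and only arsenic replicate 1 fell below control replicate 2. The difference was 0.37 (95% confidence interval 0.11 to 0.62), or 1.29-fold, with an adjusted p of 0.178 by limma. With the kidney covariate it was 0.49 (adjusted p 0.129).

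Cdkn2b, the INK4 inhibitor known as a target of transforming growth factor beta, spanned 10.38 to 10.79 in arsenic lungs and 10.29 to 10.76 in control lungs, a difference of 0.10 (95% confidence interval -0.16 to 0.35). Cdkn2c, which restrains Cdk4 and Cdk6 in the same way, spanned 8.65 to 8.88 in arsenic lungs and 8.56 to 9.16 in control lungs, a difference of -0.02 (95% confidence interval -0.27 to 0.23). The groups overlapped for both genes. With the kidney covariate the differences were 0.20 for Cdkn2b and 0.02 for Cdkn2c, and neither was called.

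Ccnd3, a D-type cyclin best known from lymphoid cells, gave different answers on its probe sets. On 1438805_at the arsenic lungs read 8.23, 8.07, 8.03, 9.16 and 8.60, against 7.57, 6.96, 6.90, 7.05 and 7.45 in control lungs. The groups did not overlap, and means of 8.42 ± 0.47 in arsenic lungs and 7.18 ± 0.30 in control lungs (SD, n = 5 each) differed by 1.23 (95% confidence interval 0.74 to 1.73), or 2.35-fold, with an adjusted p of 0.0489 by limma. Arsenic replicate 4, the lung with the highest kidney level, was the highest here as well; without it the difference was 1.05 and the adjusted p 0.0428. That was the single one of 10 leave-out fits in which the call held, and a fit with the kidney covariate gave a difference of 1.17 and an adjusted p of 0.124.

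On 1415907_at Ccnd3 read 10.27, 10.42, 10.34, 10.25 and 10.53 in arsenic lungs, against 10.35, 10.56, 10.44, 10.01 and 10.31 in control lungs. The groups overlapped fully and the difference was 0.03 (95% confidence interval -0.21 to 0.26), or 0.14 with the kidney covariate. Deviations from the group means on these 2 probe sets correlated at -0.15 over the 10 arrays, unlike the 0.88 of the Cdkn1a pair. The third, 1444323_at, was below the filter on all arrays, at 3.08 to 3.45 in arsenic lungs and 2.97 to 3.10 in control lungs. Where along the Ccnd3 transcripts each probe set lies was not analysed here, so the files give 1 probe set with higher values after arsenic and not a change of the gene as a whole. With 1 probe set per gene, Ccnd3 is represented by 1415907_at and was not called.

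Ccnd1, the D-type cyclin best known as a target of growth factor signalling, was nearly level on all 3 probe sets. Its differences were -0.07 on 1417419_at, -0.08 on 1417420_at and -0.05 on 1448698_at, and the widest of their intervals ran from -0.27 to 0.12. On 1417420_at the arsenic lungs spanned 12.55 to 12.71 and the control lungs 12.65 to 12.78. The sign of 1448698_at turned to 0.01 when arrays were centred on their medians and to 0.02 with the kidney covariate, under which 1417419_at differed by -0.05 and 1417420_at by -0.04.

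Ccnd2, a D-type cyclin that responds to mitogens and hormones, had lower means in arsenic lungs on all 7 of its probe sets, and none was called. Probe set 1434745_at showed the largest gap, with 10.81, 10.49, 10.63, 10.74 and 10.71 in arsenic lungs, against 11.04, 11.00, 11.04, 11.04 and 10.74 in control lungs. Apart from control replicate 5, all controls lay above all arsenic lungs. The difference was -0.30 (95% confidence interval -0.49 to -0.10) with an adjusted p of 0.165 by limma, and -0.33 with the kidney covariate.

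Probe set 1416122_at gave 11.37, 11.21, 11.28, 11.55 and 11.51 in arsenic lungs, against 11.74, 11.70, 11.62, 11.58 and 11.46 in control lungs, a difference of -0.24 (95% confidence interval -0.44 to -0.04). The other 5 differed by between -0.21 and -0.11, with intervals that all included 0. Of these, 1416124_at moved to -0.05 with the kidney covariate and 1416123_at to -0.05 without arsenic replicate 3. Apart from 1434745_at and 1416124_at, the differences with the kidney covariate were -0.25 to -0.16. Since the 7 probe sets read 1 gene in the same animals, their shared sign counts once: deviations from the group means correlated positively in 20 of their 21 pairs, with a median of 0.64 and a range of -0.04 to 0.96. Leaving out arsenic replicate 3 turned the sign of 1448229_s_at, a design shared between transcripts, to 0.03; on the other 6 the sign was the same in each setting run, which for 1416124_at leaves out the 75th percentile filter.

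**Figure D2:**
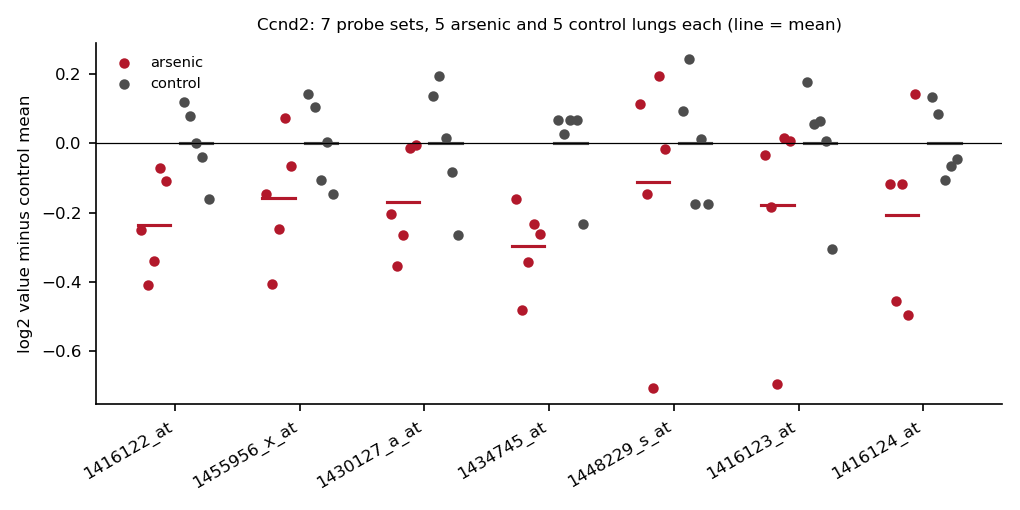
Log2 value of each lung minus the control mean for the 7 Ccnd2 probe sets, with arsenic lungs in red left of control lungs in grey and horizontal lines at the group means (n = 5 each). All 7 arsenic means lie below 0, by 0.11 to 0.30, while single arsenic lungs reach above 0 on several probe sets.

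Cdk4, the kinase partner of the D-type cyclins, differed by 0.05 on 1422439_a_at, 0.11 on 1422440_at and 0.04 on 1422441_x_at, and by 0.14, 0.27 and 0.14 with the kidney covariate, none of them called. Its arsenic and control lungs overlapped on all 3, for example at 9.77 to 10.03 in arsenic lungs and 9.72 to 9.93 in control lungs on 1422439_a_at. The 3 probe sets followed each other closely, with correlations of deviations between 0.74 and 0.84. Their intervals reached from -0.16 to 0.37 at most.

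Across the family, 22 of the 24 probe sets passed the filter, which asked for a value over the table-wide median on 5 or more arrays, and the other 2 were below it on every array. Of those 22, 3 were called higher (2 of Cdkn1a and 1 of Ccnd3) and 0 lower, beside 0.262% and 0.178% of all kept probe sets. At an unadjusted p under 0.05 there were 4 higher and 2 lower, beside 17.2% (3867 of 22495) in either direction over all kept probe sets. The same 3 were the member probe sets on which all arsenic lungs exceeded all control lungs. Over all kept probe sets 491 (2.18%) showed that pattern. The members' median difference was 0.00, beside 0.03 over all kept probe sets, and 50% of them were positive, beside 55.3%. The choice of members used this contrast, so nothing is read from these counts or from their distance to the shares over all probe sets.

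**Figure D3:**
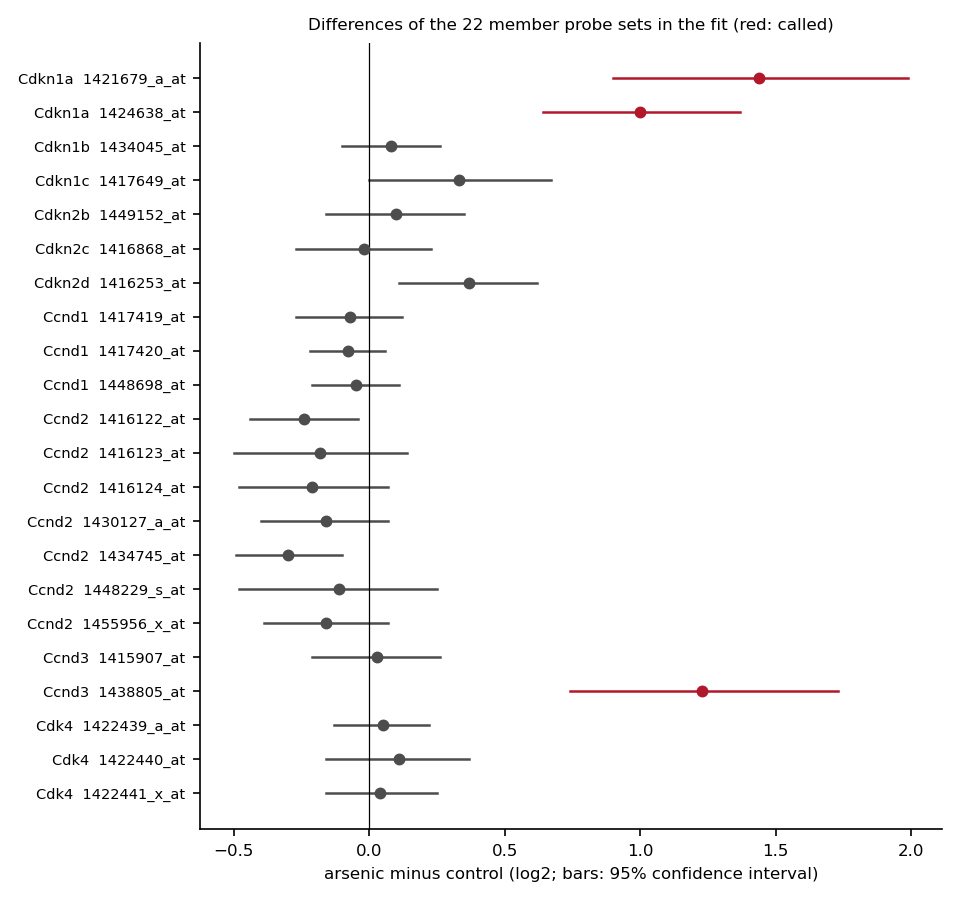
Log2 difference, arsenic minus control, of the 22 member probe sets that passed the filter, with 95% confidence intervals and the 3 called ones in red. Cdkn1a (1.44 and 1.00) and Ccnd3 1438805_at (1.23) stand to the right, and the 7 Ccnd2 probe sets lie left of 0 by 0.11 to 0.30.

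Genes that work with the members in the G1 to S transition showed no called change. These lists, like the members, were drawn up with earlier results of these data known. For them each gene was represented by its brightest kept probe set, and 54 of 11332 genes were called in either direction (0.477%), with a median difference of 0.06 and 15.7% at an unadjusted p under 0.05. All 17 tested of 19 listed partners, among them Cdk2, Cdk6, the retinoblastoma family and the E2F factors, were uncalled by limma, with 1 at an unadjusted p under 0.05 and a median difference of 0.07. Cdk6, the other kinase of D-type cyclins, had the smallest p and averaged 9.19 ± 0.19 in arsenic lungs and 9.45 ± 0.15 in control lungs (SD, n = 5 each), a difference of -0.27. E2f3 differed by -0.11 and the repressor E2f6 by 0.16.

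Genes listed for the turnover of CDK inhibitors and cyclins were also uncalled by limma. Of the 13, 12 were tested, with 2 at an unadjusted p under 0.05 and a median difference of 0.09. Fbxo31, an F-box protein that in human cells directs cyclin D1 to degradation, averaged 8.05 ± 0.24 in arsenic lungs and 7.46 ± 0.26 in control lungs (SD, n = 5 each), a difference of 0.59 with an adjusted p of 0.132 by limma. Fbxw7, which marks cyclin E for degradation, differed by -0.45, and Skp2, which marks the Cdkn1b protein, by -0.37. Protein levels were not measured.

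Read-outs of cell division gave no call either. In the DNA replication list 13 of 20 genes were tested, with 0 called by limma, 1 at an unadjusted p under 0.05 and a median difference of -0.02. Mcm7, a subunit of the replicative helicase, differed by 0.18, Mcm5 by -0.16 and the ribonucleotide reductase subunit Rrm2 by -0.26. Most mitosis genes were below the filter: 6 of 19 were tested, with 0 called, 0 at an unadjusted p under 0.05 and a median of -0.06. Among them the topoisomerase Top2a averaged 4.31 ± 0.61 in arsenic lungs and 4.76 ± 0.36 in control lungs (SD, n = 5 each), near the filter level of 4.20, and the centromere histone Cenpa differed by -0.17 and the checkpoint kinase Bub1b by 0.05. GCRMA compresses differences at such low values, which limits what the mitosis list can show.

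Among 17 tested of 19 listed factors known to act on the Cdkn1a gene, 2 rose, 1 fell and 14 were not called. The listed factors without a test were Trp53, which encodes p53, and Tfap2a. Of the 17, 11 had an unadjusted p under 0.05, 6 with positive and 5 with negative differences, beside 15.7% of all genes. This list and the lists of targets below were drawn up with earlier results of these data known. Nothing is therefore read from their counts or from the distance to the share over all genes. Zbtb16, a zinc-finger transcription factor, and Foxo3, a forkhead factor that can switch on Cdkn1a, were the 2 that rose. Foxo3 averaged 11.03 ± 0.07 in arsenic lungs and 10.28 ± 0.16 in control lungs (SD, n = 5 each), a difference of 0.75, and Zbtb16 differed by 2.36; both were called in all 10 leave-out fits. With the kidney covariate Foxo3 differed by 0.66 (adjusted p 0.0748 by limma) and Zbtb16 by 2.48 (adjusted p 0.057), so neither kept its call there.

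Klf4, a Krüppel-like factor that can activate Cdkn1a, fell to 13.19 ± 0.07 in arsenic lungs, against 13.74 ± 0.20 in control lungs (SD, n = 5 each), a difference of -0.55 that was called in none of the 10 leave-out fits (adjusted p 0.0572 to 0.136 by limma). Adding the kidney covariate gave Klf4 a difference of -0.57 (adjusted p 0.0965 by limma), so its call did not hold there. The list's median difference was 0.11, close to that of all genes. Factors that raise and factors that lower Cdkn1a were not separated in the list, so this median says nothing of their joint effect.

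Of 17 listed p53 targets other than Cdkn1a, 15 were tested and 1 was called. An unadjusted p under 0.05 was seen for 5, of which 3 had positive and 2 negative differences, beside 15.7% of all genes. Fas, a death receptor, rose to 10.75 ± 0.15 in arsenic lungs, against 10.04 ± 0.25 in control lungs (SD, n = 5 each), a difference of 0.71 that was called in 1 of 10 leave-out fits, the one without control replicate 4 (adjusted p 0.0316 to 0.131 over the 10 by limma). Under the kidney covariate the Fas difference was 0.54 (adjusted p 0.0992 by limma), so its call did not hold there. Plk2, a polo-like kinase, averaged 8.90 ± 0.36 in arsenic lungs and 9.65 ± 0.38 in control lungs and was not called. The sestrin gene Sesn1 differed by 0.36. The list's median of 0.09 was near the 0.06 of all genes.

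Glucocorticoid hormone can also switch on Cdkn1a, and whether it did so here was not tested. Of 15 listed targets of that hormone, 14 were tested. Their differences ran from -0.69 to 2.36, with 12 positive and 2 negative. An unadjusted p under 0.05 was seen for 6, of which 5 had positive differences and 1 a negative one, beside 15.7% of all genes. By limma 3 of the 14 were called, all higher. They were Zbtb16, which stands in both lists, the receptor co-chaperone Fkbp5 and the sulfotransferase Sult1a1. Fkbp5 averaged 9.92 ± 0.34 in arsenic lungs and 8.16 ± 0.38 in control lungs (SD, n = 5 each) and was called in all 10 leave-out fits. Sult1a1 differed by 0.85 and was called in 1 of 10 leave-out fits, the one without control replicate 4 (adjusted p 0.0316 to 0.112 over the 10 by limma). Under the kidney covariate the Sult1a1 difference was 0.72 (adjusted p 0.0965 by limma), so its call did not hold there. The median of this list was 0.31. Fkbp5 differed by 1.76, and by 1.96 with the kidney covariate, where limma's adjusted p was 0.0504.

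**Figure D4:**
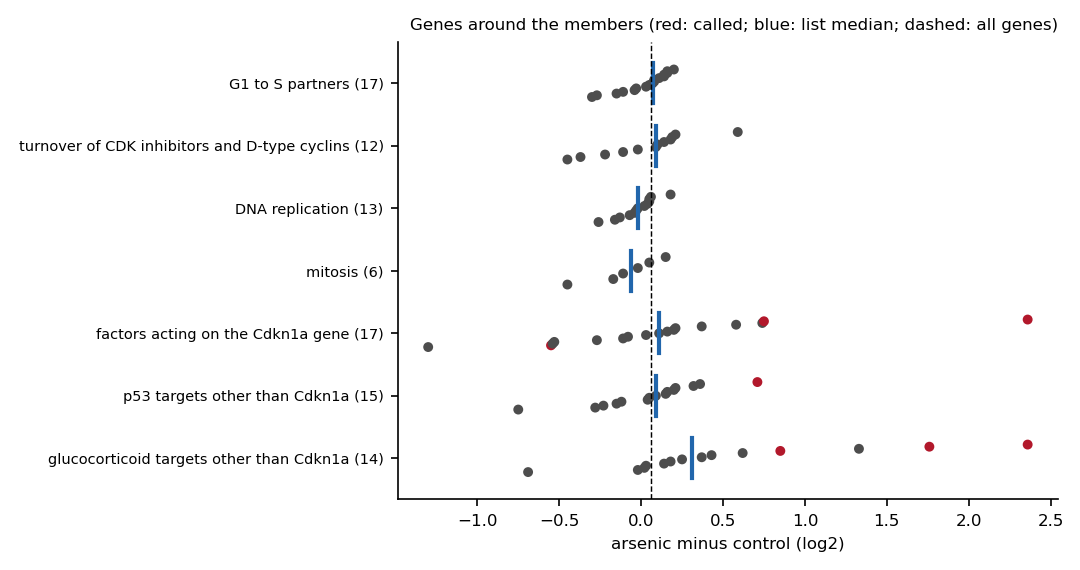
Log2 difference, arsenic minus control, of each tested gene in 7 lists around the members, with called genes in red, a blue bar at the list median and a dashed line at the median of all 11332 genes (0.06). Called genes appear in the lists of factors acting on Cdkn1a, p53 targets and glucocorticoid targets, and none appears in the 4 cell cycle and turnover lists.

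Genes whose pattern was most like that of Cdkn1a were ranked among the 11331 other genes by Pearson's r with 1424638_at over the 10 arrays, as a description. By log2 values, which carry the group difference, the top 5 were Tsc22d3 (r = 0.97), Bcl2l1 (0.968), Fry (0.963), Sla (0.961) and Mcf2l (0.959). Tsc22d3, a leucine zipper gene induced by glucocorticoids, averaged 13.79 in arsenic lungs and 13.16 in control lungs, and Bcl2l1, an inhibitor of apoptosis, 10.15 in arsenic lungs and 9.47 in control lungs. Sla is an adaptor of receptor signalling. By deviations from the group means, which leave the group difference out, the top 5 were Rhob (0.912), Errfi1 (0.906), Gsn (0.9), Phf7 (0.893) and Stc1 (0.89). Rhob is a small GTPase, Errfi1 an inhibitor of the epidermal growth factor receptor and Gsn the actin-severing protein gelsolin. No gene was in both sets of 5, and the group means of these last 5 differed by at most 0.15. Over 10 arrays the highest r among 11331 genes can be large without any link, and no link was tested. Among the members, deviations of Cdkn1a on 1424638_at correlated with those of Cdkn1c at 0.64 and of the other genes' probe sets at -0.58 to 0.47, over the same 10 arrays and their shared RNA. The lowest was Ccnd2 1434745_at, in which control replicate 5 stood apart, and the other 6 Ccnd2 probe sets were at -0.30 to 0.00.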

How the data were processed

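Lung RNA of 5 arsenic and 5 control mice was read on 1 array each, per the labels. The deposited values are log2 expression for 45101 probe sets. The submitters' processing notes name GCRMA, which corrects background from probe sequence, normalizes between arrays and summarises each probe set. Its settings were not given in the sources used here. The log2 scale was read from the range of 0.619 to 16.3. No scanner file was used, so no detection call or scan date was analysed here.

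Symbols came from the platform annotation: 34958 probe sets had 1 symbol, 932 several and 9211 were not listed. Probe sets above the table's median (4.20) on at least 5 arrays were kept and control probe sets left out. Groups, taken from the titles, were compared in limma 3.58.1 (R 4.3.3; lmFit, eBayes), with Benjamini-Hochberg adjustment over all kept probe sets, or over genes by their brightest kept probe set. Limma was also run on simulated data of this design, drawn independently for each probe set. Changes of several sizes were added, and recovery was required only for the largest, which was above any member's difference. Recovery of the smaller ones is not reported here, so no sensitivity to them is claimed. The members, gene lists and naming rule (all members; the 3 smallest p and every called gene of each pathway list; the 5 genes most like Cdkn1a) were chosen with earlier results of these data known. Alternatives were other filters, normalizations and priors, array weights, a replicate block, a kidney covariate, a threshold of 0.1 and leaving out arrays. Same-numbered arrays did not pair (correlations of deviations -0.26 to 0.15). Precision was limited by the number of arrays. Figures were drawn with matplotlib 3.10.9.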

Additional observations from a re-analysis of the deposited data

Results flagged for a closer look

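Among 48 combinations of a member probe set and a group of 5 lungs, 3 had an end value that stood apart from the others by more of the group's range than Dixon's critical value of 0.71 allows, and chance flags about 1 in 20 such groups. In Ccnd2 1434745_at, control replicate 5 was at 10.74 while the other 4 controls lay at 11.00 to 11.04 (ratio 0.869). In Ccnd2 1416123_at, arsenic replicate 3 was at 7.57 while the other arsenic lungs lay at 8.08 to 8.28 (ratio 0.716). In Cdkn1b 1419497_at, which was below the filter on every array, arsenic replicate 5 was at 3.00 (ratio 0.815). No Cdkn1a or Ccnd3 value was set apart in this way.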

How the results depend on the processing

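Against 99 called probe sets, 3 member probe sets, 54 genes and 6 genes of the 7 pathway lists, no filter gave 19, 0, 19 and 3, the replicate block 4, 1, 5 and 0, the kidney covariate 6, 0, 0 and 0, and leaving out arsenic replicate 4 and control replicate 2 together 0, 0, 11 and 3. A filter at the 75th percentile (8.16) called 1 member probe set, array weights called 167 probe sets, and a threshold of 0.1 called 241 probe sets and 108 genes. Leaving out 1 animal at a time gave 11 to 96 probe sets, 0 to 2 member probe sets, 9 to 41 genes and 3 to 5 list genes. Replicate numbers did not pair the samples, and 0 of 10 arrays correlated best with its own number in the other group; under the block Cdkn1a had adjusted p-values of 0.091 (1424638_at) and 0.0406 (1421679_a_at) and Ccnd3 1438805_at 0.0966. The differences of these 3 called probe sets were positive in each setting run, which for Cdkn1a 1421679_a_at and Ccnd3 1438805_at leaves out the 75th percentile filter, at 0.94 to 1.12 (1424638_at), 1.29 to 1.60 (1421679_a_at) and 0.99 to 1.33 (1438805_at). With no filter their adjusted p-values were 0.116, 0.131 and 0.151. Signs turned only on uncalled probe sets, of Cdkn2c, Ccnd1, Ccnd2 and Ccnd3. The causes of these changes were not tested. Dim probe sets limit what can be seen, since GCRMA compresses low values.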
